A study of Mus musculus with 6 samples.

Results

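The Notch and Hes genes examined here were 10 genes chosen by name from the 23621 in the deposited table. They were the receptors Notch1, Notch2 and Notch3, the ligands Dll1, Dll3 and Jag1, and the transcriptional repressors Hes1, Hes5, Hes6 and Hey1. RNA was sequenced from the cortex of newborn mice at postnatal day 0, with 3 libraries from Tle4-/- null mutants and 3 from wild-type littermates. Both genotypes shared a mixed background of C57BL/6J, 129S6 and CD1. The labels state neither which part of Tle4 the null allele removes nor whether a library holds tissue from more than 1 animal, so p-values set the genotypes against the spread between these samples, which may be in part technical.

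Notch receptors are cut after they bind a ligand on a neighbouring cell, and the released intracellular part joins the DNA-binding protein RBPJ to switch on target genes. Hes and Hey genes are the best known of these targets. In the developing cortex Hes1 and Hes5 keep radial glia, the progenitor cells, from turning into neurons by repressing proneural genes, while Dll1 is made by neighbouring cells that are turning into neurons. Hes proteins repress by recruiting Groucho co-repressors, the family to which the protein made by Tle4 belongs, so the comparison asks how this circuit stands when that co-repressor gene is mutated.

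The Groucho link is written at the end of the coding sequence. The last coding bases of Hes5 and Hes6 are shown because they spell the short tail that Groucho proteins bind, tryptophan-arginine-proline-tryptophan. They come from the GENCODE transcripts on GRCm38, for Hes5 from chr4:154961649-154961675 on the plus strand and for Hes6 from chr1:91412058-91412084 on the minus strand. Capitals mark the 4 codons of the tail, followed by the stop codon.
Hes5: gcctgcggcctcTGGCGGCCCTGGtga
Hes6: gctcagagtgtgTGGAGGCCTTGGtga

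Promoter windows, from 250 bases before to 50 bases after a transcription start, came from RefSeq on GRCm38.p6 and matched 8 of the 10 genes. Hes1 and Hey1 had no entry. Where a gene had several starts, the window nearest to the start in the deposited table was used. For Notch1 and Dll3, both on the minus strand, the window lay inside the deposited gene model. That of Notch1 was chr2:26503773-26504072, with the model starting at 26516663. That of Dll3 was chr7:28301736-28302035, with the model starting at 28302238. Windows were searched on both strands for GTGGGAA, the core bound by RBPJ, for CAGCTG, an E-box of the kind bound by proneural factors, and for CACNAG, the N-box bound by Hes proteins. Within the 8 windows no motif overlapped another kind of motif, but 2 of the 3 N-boxes of Notch1 overlapped each other on opposite strands. Of the 8 windows, 1 held GTGGGAA, that of Hes5, which held it at 2 places, starting 226 and 83 bases before the start. Among all 32851 RefSeq windows 6.38% held GTGGGAA and 0.256% held it at 2 places or more. CAGCTG was in 4 of the 8 windows, those of Dll1, Dll3, Hes6 and Jag1, against 16.3% of all windows. CACNAG was in 4 of the 8, those of Dll1, Notch1, Notch2 and Notch3, against 42.5% of all. A match is a description of the letters only.

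The windows of Hes5, Hes6, Dll1 and Dll3 are shown for 2 reasons. Hes5 varied most between libraries, and the other 3 genes shared their highest library, wild-type replicate 1, as given further on. This choice was made with their values known. Capitals mark GTGGGAA in Hes5 and CAGCTG in the other 3, on either strand. The windows lie on GRCm38.p6 at chr4:154960673-154960972 on the plus strand for Hes5, and on the minus strand at chr1:91413989-91414288 for Hes6, chr17:15376883-15377182 for Dll1 and chr7:28301736-28302035 for Dll3.
Hes5: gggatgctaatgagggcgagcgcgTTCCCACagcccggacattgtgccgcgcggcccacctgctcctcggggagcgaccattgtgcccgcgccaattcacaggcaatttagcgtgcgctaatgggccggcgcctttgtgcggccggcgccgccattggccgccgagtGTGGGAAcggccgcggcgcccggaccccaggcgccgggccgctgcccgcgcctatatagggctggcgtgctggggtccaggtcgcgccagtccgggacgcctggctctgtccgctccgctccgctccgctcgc
Hes6: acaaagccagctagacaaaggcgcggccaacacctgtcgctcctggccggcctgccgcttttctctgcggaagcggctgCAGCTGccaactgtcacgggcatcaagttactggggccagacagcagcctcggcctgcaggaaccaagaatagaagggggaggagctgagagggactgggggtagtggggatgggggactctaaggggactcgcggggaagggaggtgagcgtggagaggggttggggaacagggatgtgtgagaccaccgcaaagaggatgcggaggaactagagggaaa
Dll1: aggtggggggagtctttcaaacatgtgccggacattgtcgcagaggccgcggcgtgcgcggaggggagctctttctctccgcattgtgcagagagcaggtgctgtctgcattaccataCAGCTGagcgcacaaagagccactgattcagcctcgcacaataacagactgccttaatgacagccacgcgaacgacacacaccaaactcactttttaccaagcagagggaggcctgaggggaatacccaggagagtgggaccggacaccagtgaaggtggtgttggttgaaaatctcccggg
Dll3: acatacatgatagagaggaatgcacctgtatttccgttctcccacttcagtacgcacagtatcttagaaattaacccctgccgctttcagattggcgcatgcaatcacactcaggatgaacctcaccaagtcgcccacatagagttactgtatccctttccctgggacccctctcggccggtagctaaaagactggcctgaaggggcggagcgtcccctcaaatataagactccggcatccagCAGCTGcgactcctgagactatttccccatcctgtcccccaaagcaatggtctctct

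The libraries held 19155168 to 21486851 counts in the mutants and 18617408 to 21632607 in the wild types. Cortical projection neuron markers summed to 1970 to 2510 CPM (counts scaled to library size with TMM factors) in the mutants and 2194 to 2484 CPM in the wild types, and all 7 were counted in every library. Tle4 (chromosome 19, 14448072 to 14598051 on GRCm38, as for all gene positions here) had 69.3, 86.8 and 86.8 CPM in the mutants, against 198, 142 and 166 CPM in the wild types. Its expression fell, with a fold of 0.480 (-1.06 as log2, SE 0.14, n = 3 each, edgeR adjusted p = 0.0377). The edgeR adjusted p was 0.0306 without wild-type replicate 2. It was 0.10, 0.111 and 0.135 without mutant replicates 1, 2 and 3, and 0.0784 and 0.162 without wild-type replicates 1 and 3. The adjusted p was 0.0646 by limma-voom and 5.3e-08 by the DESeq2 Wald test. Of 16 alternative fits, the adjusted p of Tle4 stayed under 0.05 in 9 and did not in 7. Meningeal markers, of which 8 of 9 were counted in every library and Aldh1a2 was at 0 in some, summed to 14.7 CPM in wild-type replicate 1, against 184 and 521 CPM in the other wild types and 201 to 420 CPM in the mutants. Choroid plexus markers summed to 103 CPM in mutant replicate 3, against 4.16 and 5.29 CPM in the other mutants and 2.04 to 8.12 CPM in the wild types. Xist, made in females, had 66194 to 79080 counts in the mutants and 11 to 37 in the wild types. Ddx3y, on the Y chromosome, had 0 to 2 counts in the mutants and in wild-type replicate 3, against 1463 and 1891 in the other wild types. Wild-type replicate 3, with 37 Xist and 2 Ddx3y counts, was thus marked as neither sex by these genes. Xist was high in all mutants and in no wild type, so sex and genotype cannot be told apart in any comparison here.

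None of the 10 Notch and Hes genes passed the threshold of an adjusted p under 0.05 by edgeR, DESeq2, limma-voom or a limma fit on FPKM. Among all 16274 genes tested by edgeR, 0.111% passed, 0.0492% higher and 0.0614% lower in the mutants. By the other fits 0.357% (DESeq2), 0.0799% (limma-voom) and 0.0983% (limma on FPKM) of genes passed. At an unadjusted p under 0.05 there were 0 of 10 by edgeR, against 3.45% of all genes. Every one of the 10 had an edgeR adjusted p of 1.0, which is not repeated at each gene below. The genotypes overlapped in all 10, while in 7.93% of all genes they did not overlap. The log2 fold change was above 0 in 6 of the 10, against 48.7% of all genes, with a median of 0.10 beside -0.01 over all genes. All 10 passed the filter on low counts, and their counts per library were between 125 and 1790.

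Per length of gene model, Hes6 stood highest and Jag1 lowest. In deposited FPKM (fragments scaled to gene length and library size), Hes6 had 17.01 ± 1.16 in the mutants and 17.8 ± 3.67 in the wild types (SD, n = 3 each). Hes5 followed with 9.83 ± 3.85 FPKM in the mutants and 7.51 ± 3.71 FPKM in the wild types, and its range did not reach that of Hes6. Hey1, Notch3, Notch2 and Notch1 came next, with means over the 6 libraries of 6.54, 6.06, 5.0 and 4.92 FPKM. The ranges of Hes5, Hey1, Notch3, Notch2 and Notch1 each overlapped the next in this order, so their order is not set beyond the spread, although Notch3 was above Notch2 in each of the 6 libraries. Dll1 was below Notch1 in every library without overlap, at a mean of 3.84 FPKM. Hes1, Dll3 and Jag1 closed the order at 3.34, 2.82 and 2.16 FPKM, each overlapping its neighbours. Hes1, the canonical Notch target, thus had the lowest mean of the 4 repressors.

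**Figure D1:**
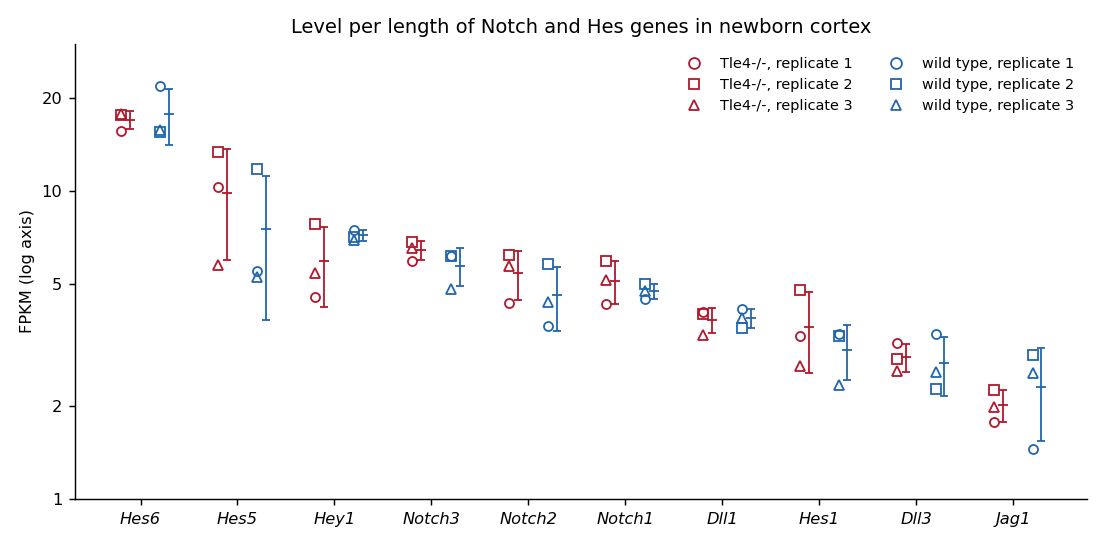
FPKM of each gene on a log axis, ordered by the mean over the 6 libraries, with mutant libraries in red on the left and wild types in blue on the right. Points are libraries and bars show the mean and SD of 3. Hes6 lies at 15.5 to 22.0 FPKM, above all others, and Jag1 at 1.45 to 2.93 FPKM.

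The 3 receptors had fold changes between 1.09 and 1.19, none past the threshold. Notch1 (ENSMUSG00000026923, chromosome 2, 26457903 to 26516663), the main receptor of neural progenitors, had 68.2, 93.7 and 82.0 CPM in the mutants, against 72.0, 76.6 and 75.2 CPM in the wild types. The mutants enclosed all 3 wild types, with replicate 2 highest and replicate 1 lowest. Its log2 fold change was 0.12 (SE 0.13), and the 95% interval of the fold was 0.894 to 1.33. The value was 0.01 without mutant replicate 2 and 0.24 without mutant replicate 1.

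Notch2 (ENSMUSG00000027878, chromosome 3, 98013527 to 98150361), a receptor also made in radial glia, had 48.6, 69.5 and 64.5 CPM in the mutants, against 41.7, 62.8 and 48.8 CPM in the wild types. Replicate 2 was highest in each genotype and wild-type replicate 1 was the lowest of all. For Notch2 the log2 fold change was 0.25 (SE 0.18, fold interval 0.896 to 1.58). It was 0.43 without wild-type replicate 2, where the unadjusted p was under 0.05. It was 0.12 without wild-type replicate 1, the library with few meningeal transcripts, and 0.12 in a fit that held a score of meningeal markers. Notch3 (ENSMUSG00000038146, chromosome 17, 32120820 to 32166880), a receptor of radial glia and of the mural cells that wrap vessels, had 47.8, 54.8 and 53.1 CPM in the mutants, against 50.6, 48.2 and 38.5 CPM in the wild types. Wild-type replicate 3 was lowest, and the other 2 wild types lay above mutant replicate 1. Notch3 had a log2 fold change of 0.18 (SE 0.13, fold interval 0.925 to 1.39). Dropping wild-type replicate 3 gave 0.073, and dropping wild-type replicate 1 gave 0.26. Mural markers, all 9 counted in every library, summed to 179 to 235 CPM in the mutants and 143 to 249 CPM in the wild types, and their part in the Notch3 values was not tested. In bulk tissue, fewer cells of a type and less RNA per cell cannot be told apart.

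Among the ligands Dll1 was nearly equal in both genotypes, and none passed the threshold. Dll1 (ENSMUSG00000014773, chromosome 17, 15367354 to 15376872), the activating ligand of nascent neurons, had 24.5, 24.2 and 20.9 CPM in the mutants, against 25.5, 21.0 and 23.4 CPM in the wild types. Its genotype means, 23.2 ± 2.02 CPM in the mutants and 23.3 ± 2.23 CPM in the wild types (SD, n = 3 each), differed by less than either SD. Its log2 fold change was -0.01 (SE 0.14), and the fold interval of 0.801 to 1.24 was the narrowest of the 3 ligands. Dll3 (ENSMUSG00000003436, chromosome 7, 28293553 to 28302238), a divergent ligand that does not activate Notch on neighbouring cells, had 12.4, 10.9 and 10.1 CPM in the mutants, against 13.4, 8.48 and 9.89 CPM in the wild types. The wild types enclosed all 3 mutants. That gave Dll3 a log2 fold change of 0.07 (SE 0.21, fold interval 0.759 to 1.46).

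Jag1 (ENSMUSG00000027276, chromosome 2, 137081456 to 137116644), a ligand of progenitors and of vessel walls, had 12.2, 15.4 and 13.7 CPM in the mutants, against 10.1, 19.4 and 17.5 CPM in the wild types. The wild types held both the lowest library, replicate 1, and the 2 highest. Jag1 had a log2 fold change of -0.18 (SE 0.24, fold interval 0.605 to 1.28). It was -0.42 without wild-type replicate 1, where the unadjusted p was under 0.05, and -0.37 with the meninges score in the fit. The sign of the ligands rested on single libraries. Jag1 was at 0.0042 without wild-type replicate 2. Dll3 was at -0.0074 without mutant replicate 1 and -0.061 without wild-type replicate 2, against 0.28 without wild-type replicate 1. Dll1 was at 0.063 without mutant replicate 3, 0.062 without wild-type replicate 1 and 0.055 with the meninges score.

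**Figure D2:**
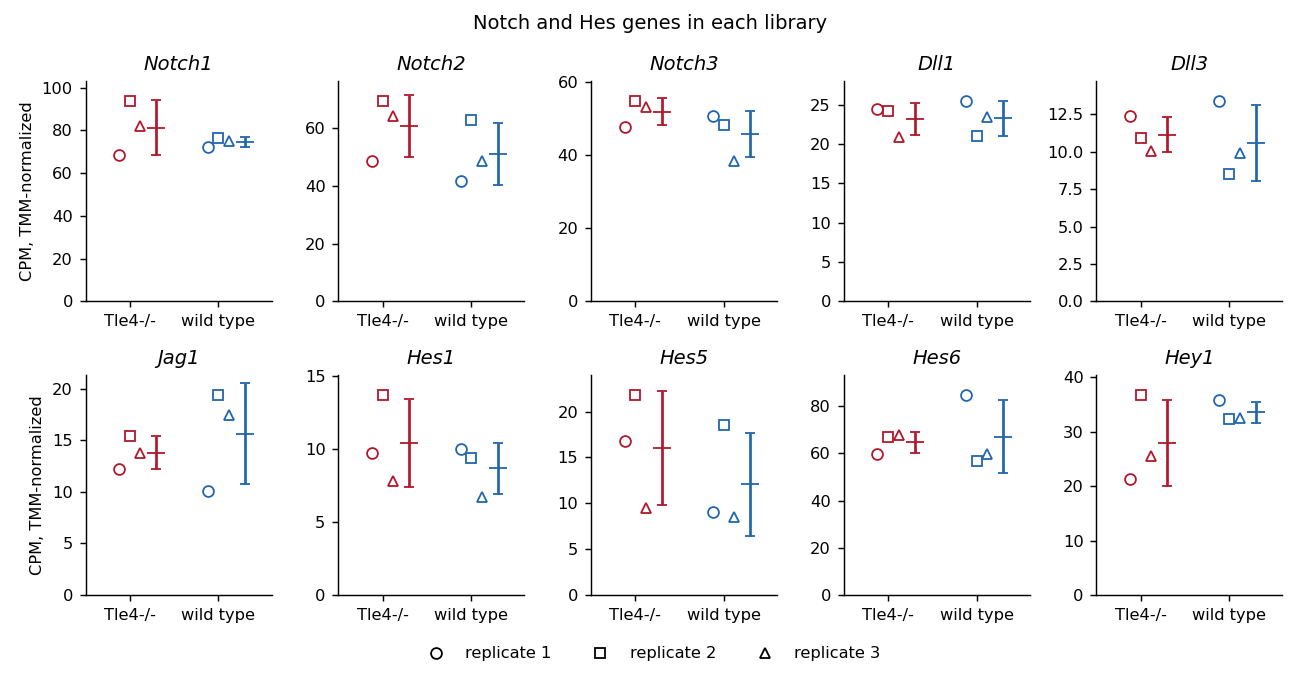
TMM-normalized CPM of the 10 genes in each library, mutants left and wild types right in each panel, on axes that start at 0. Symbols are replicates and bars show the mean and SD of 3. The genotypes overlap in every panel. Hes5 is at 9.44 to 21.8 CPM in the mutants and 8.55 to 18.6 CPM in the wild types.

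Among the repressors, Hes5 had the largest fold change of the 10 genes and the widest interval. Hes5 (ENSMUSG00000048001, chromosome 4, 154960923 to 154962371), the Notch target of radial glia whose promoter carries both RBPJ motifs, had 16.8, 21.8 and 9.44 CPM in the mutants, against 9.06, 18.6 and 8.55 CPM in the wild types. Replicate 2 was highest in each genotype, and wild-type replicate 2 lay above 2 of the 3 mutants. The mean was 1.33 times the wild type (log2 fold change 0.41, SE 0.39, fold interval 0.700 to 2.51). Within a genotype the highest library was 2.31 times the lowest in the mutants and 2.17 times in the wild types, more than the genotypes differed. The SD of its log2 CPM within genotypes was 0.62, higher than in 95.1% of the 2314 genes with a mean level within 1.5-fold of its own. Dropping wild-type replicate 2 gave Hes5 a log2 value of 0.87, where the unadjusted p was under 0.05 and the edgeR adjusted p = 0.947. Dropping mutant replicate 2 gave 0.12, and the meninges score gave 0.22.

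Hes1 (ENSMUSG00000022528, chromosome 16, 30064384 to 30067796), the other effector of Notch in progenitors, had 9.73, 13.7 and 7.82 CPM in the mutants, against 9.98, 9.38 and 6.72 CPM in the wild types. Mutant replicate 2 was highest and wild-type replicate 3 lowest, with the other 4 libraries between. Hes1 had a log2 fold change of 0.26 (SE 0.25, fold interval 0.810 to 1.77), and it was 0.01 without mutant replicate 2 and 0.43 without mutant replicate 3. Radial glia markers, of which all 10 were counted in every library, summed to 1876 to 2154 CPM in the mutants and 1464 to 1922 CPM in the wild types. Of these 10 markers, 9 had a log2 fold change above 0, against 48.7% of all genes. Their median was 0.20, and 0 passed the threshold by edgeR. The highest library of their sum was mutant replicate 2 and the lowest wild-type replicate 3, as for Hes1 and Hes5, and their part in these values was not tested.

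Hes6 and Hey1 had log2 fold changes below 0. Hes6 (ENSMUSG00000067071, chromosome 1, 91411483 to 91414038), which is made in differentiating neurons and counteracts Hes1, had 59.5, 66.8 and 67.7 CPM in the mutants, against 84.8, 57.0 and 59.7 CPM in the wild types. Wild-type replicate 1 stood above the rest, and the other 2 wild types lay on either side of the lowest mutant. Hes6 had a log2 fold change of -0.05 (SE 0.16, fold interval 0.754 to 1.23). That of Hes6 was 0.15 without wild-type replicate 1, 0.0063 without mutant replicate 1, -0.16 without wild-type replicate 2 and 0.11 with the meninges score. Markers of striatum and ganglionic eminence, all 10 of which were counted in every library, summed to 173 to 216 CPM in the mutants and 216 to 305 CPM in the wild types, and their part in the Hes6 and Dll1 values was not tested. Hey1 (ENSMUSG00000040289, chromosome 3, 8663359 to 8667256), a related repressor also used by vessels, had 21.4, 36.8 and 25.6 CPM in the mutants, against 35.9, 32.3 and 32.6 CPM in the wild types. Mutant replicates 1 and 3 were below every wild type, while mutant replicate 2 was the highest library. Endothelial markers summed to 186 to 221 CPM in the mutants and 159 to 260 CPM in the wild types, and their part in the Hey1 values was not tested. Hey1 had a log2 fold change of -0.27 (SE 0.19, fold interval 0.619 to 1.12), with the smallest unadjusted p of the 10. Without mutant replicate 2 it was -0.52, where the unadjusted p was under 0.05 and the edgeR adjusted p = 1.0. Without mutant replicate 1 it was -0.10.

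**Figure D3:**
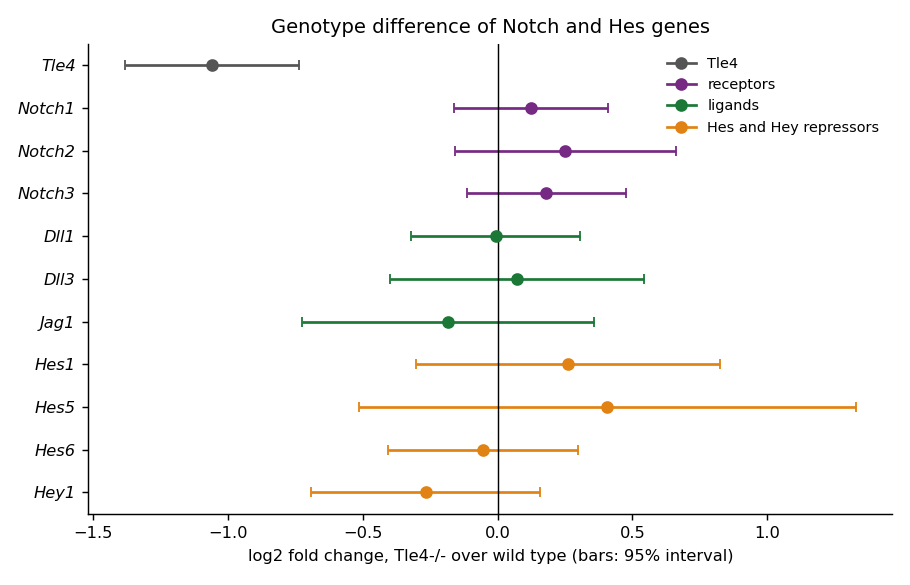
Log2 fold change of the mutants over the wild types, with its 95% interval from the edgeR fit, for Tle4 and the 10 genes coloured by role. All 10 intervals include 0, and that of Hes5 runs from -0.51 to 1.33. Tle4 lies at -1.06.

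Across libraries the 10 genes did not move as 1 block. Mutant replicate 2 was the highest library for 6 genes, namely Notch1, Notch2, Notch3, Hes1, Hes5 and Hey1, and the lowest for none. Wild-type replicate 1 was the highest for Dll1, Dll3 and Hes6, genes made in cells turning into neurons, and the lowest for Notch2 and Jag1. For Dll1 its lead was small, at 25.5 CPM beside 24.5 CPM in mutant replicate 1. In mutant replicate 1, Dll1 and Dll3 lay above their means over the 6 libraries and Hes6 below. Dll1, Dll3 and Hes6 are the 3 genes whose promoter windows are shown with CAGCTG, a motif that Jag1 also carries although wild-type replicate 1 was its lowest library. Wild-type replicate 3 was the lowest for Notch3, Hes1 and Hes5. Mutant replicate 2 also had the highest sum of radial glia markers, 2154 CPM, and wild-type replicate 1 had the lowest sums of mural markers, 143 CPM, and meningeal markers, 14.7 CPM. Sums of endothelial (159 CPM), choroid plexus (2.04 CPM), erythroid (129 CPM) and microglial markers (25.3 CPM) were lowest in wild-type replicate 1 too. Intermediate progenitor markers summed highest in mutant replicate 1, at 228.5 CPM, with wild-type replicate 1 at 218.7 CPM. The part of these cell types in the pattern was not tested.

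**Figure D4:**
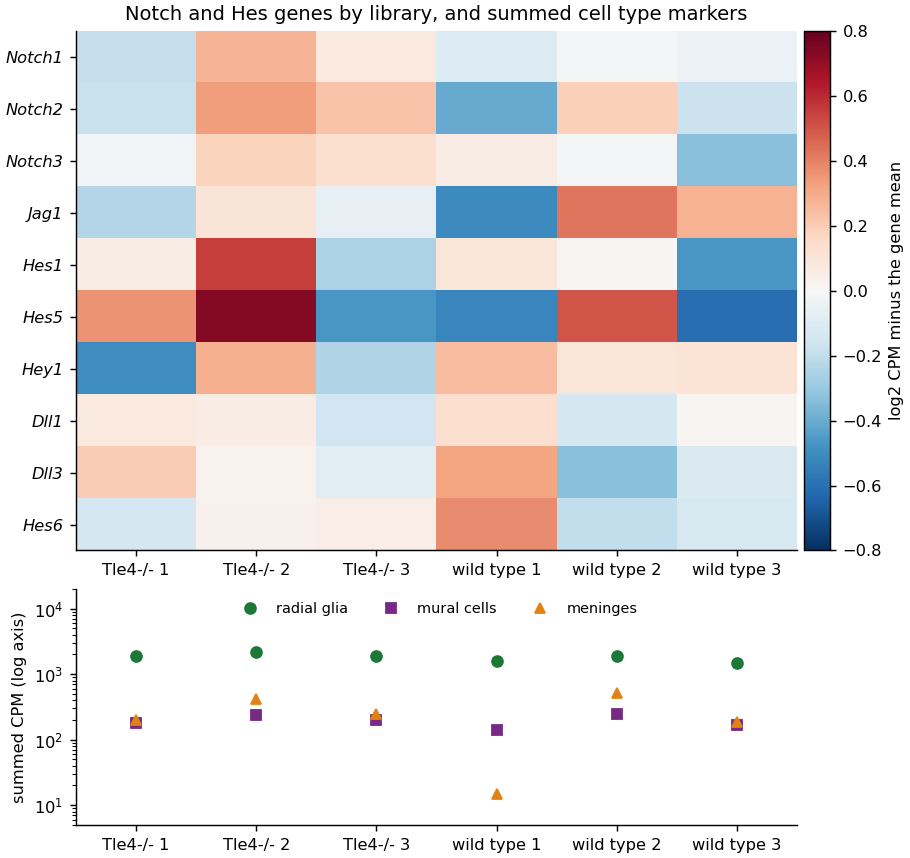
Upper panel, log2 CPM of each gene minus its mean over the 6 libraries, mutants left and wild types right; red is above the mean and blue below. Lower panel, summed CPM of radial glia, mural and meningeal markers in the same libraries on a log axis. Hes5 is highest in replicate 2 of each genotype, and meningeal markers are at 14.7 CPM in wild-type replicate 1.

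The genes most like Hes5 and Hes1 across the 6 libraries were found by the root mean square difference of log2 CPM, after subtracting each gene's mean, among genes of at least 10 CPM. For Hes5 they were Ppp1r3c, a glycogen-targeting subunit of protein phosphatase 1 (difference 0.21), Cgnl1, a cell junction protein (0.21), and Sertad2, a transcriptional co-regulator (0.22). For Hes1 they were Tmem258 (0.11), Commd3 (0.12) and Dyx1c1Ccpg1 (0.12). Among the 10 genes themselves, compared with no minimum level, the nearest to Hes5 was Hes1 (0.37), at rank 89 if placed among the searched genes. The nearest to Hes1 was Notch3 (0.23), at rank 302. For Hes1, the same difference of 0.37 placed Hes5 at rank 5919 if set among the 10297 searched genes.

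The rest of the pathway was read from a list of 52 further genes, of which 51 were found by name. Of these, 48 were tested, and 0 passed the threshold by edgeR, DESeq2, limma-voom or limma on FPKM, with 2 at an unadjusted edgeR p under 0.05, a level reached by 3.45% of all genes. Above 0 lay 26 and below 0 lay 22, with a median log2 fold change of 0.02. The genotypes did not overlap in 3 of the 48, against 7.93% of all genes, so both shares were near the background. The 3 were Dtx4, Ctbp2 and Psenen, the last named after its values were seen. Of the other receptors and ligands, 4 lay above 0 and 2 below, and of the other Hes and Hey genes 2 above and 1 below. Modifiers of Notch split into 9 above and 8 below, genes of receptor proteolysis into 6 and 3, and genes of the nuclear complex and co-repressors into 5 and 6. Hes3, Neurog1 and Atoh1 did not pass the filter on low counts, with at most 3 counts in any library, and no entry named Hes2 was found.

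Dtx4, a Deltex ubiquitin ligase that modulates Notch, had the smallest p. It had 306, 247 and 264 CPM in the mutants, against 217, 206 and 223 CPM in the wild types, without overlap. Its log2 fold change was 0.34 (SE 0.10, edgeR adjusted p = 1.0), higher in 3 of 3 mutants than in any wild type. Dtx4 lies on chromosome 19 from 12466341 to 12501996, 1.95 Mb from Tle4 on the same chromosome. Ctbp2, a co-repressor, had 44.8, 39.8 and 41.5 CPM in the mutants, against 35.4, 35.3 and 32.9 CPM in the wild types, also without overlap (log2 fold change 0.28, SE 0.11, edgeR adjusted p = 1.0). Ctbp2 overlaps 1 other gene in the table.

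The other genes named by role stayed short of the threshold as well. Among the receptors and ligands not among the 10, Jag2 had the smallest p (log2 fold change -0.12, SE 0.11). Its levels were 84.2, 102 and 99.9 CPM in the mutants and 105, 102 and 103 CPM in the wild types. Hey2, a relative of Hey1, gave 0.34 (SE 0.31), and Aph1a, a subunit of the γ-secretase that cuts Notch, gave 0.20 (SE 0.13). Neurog2, a proneural gene of the cortex, gave -0.11 (SE 0.22), at 5.88 ± 0.805 CPM in the mutants and 6.36 ± 1.08 CPM in the wild types (SD, n = 3 each). RBPJ itself, from the gene Rbpj, averaged 32.3 ± 7.63 CPM in the mutants and 28.1 ± 4.78 CPM in the wild types.

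**Figure D5:**
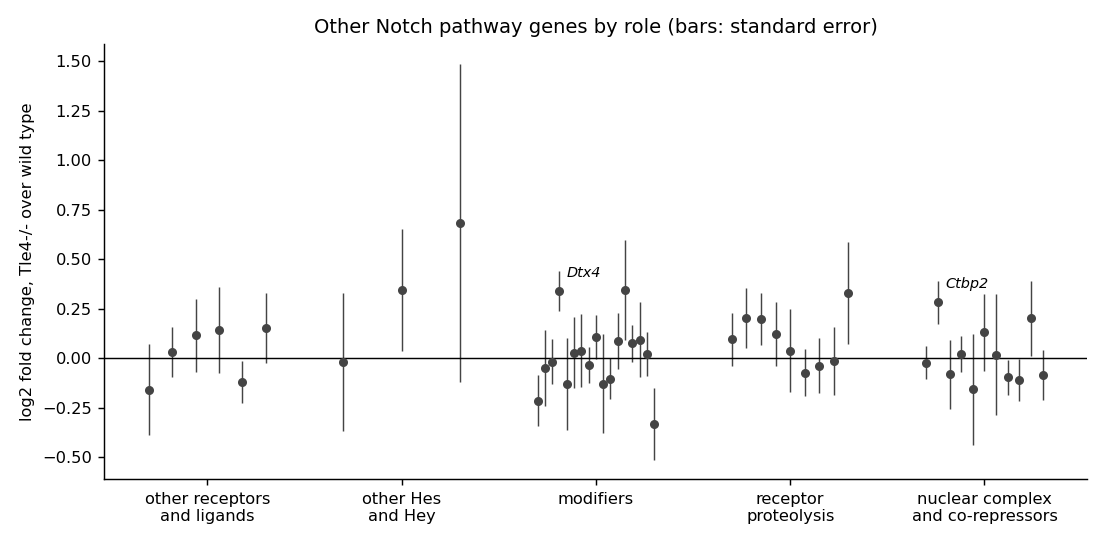
Log2 fold change of the mutants over the wild types with its standard error for other pathway genes tested, grouped by role, without the proneural genes. Named points have an unadjusted edgeR p under 0.05. Dtx4 is at 0.34 and Ctbp2 at 0.28, and no point passes the adjusted threshold.

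Among the other Groucho genes none of 5 passed the threshold by edgeR. Of these, 1, Tle2, was at an unadjusted edgeR p under 0.05, a level reached by 3.45% of all genes. Tle2 had 41.0, 46.6 and 56.8 CPM in the mutants, against 44.0, 32.4 and 30.7 CPM in the wild types, with overlap (log2 fold change 0.43, SE 0.17, edgeR adjusted p = 1.0). Tle1 gave -0.05 (SE 0.11), Tle3 0.13 (SE 0.13), Aes, the short member of the family, 0.11 (SE 0.10), and Tle6 -0.10 (SE 0.35). Tle3 stood at 167 ± 17.4 CPM in the mutants and 152 ± 20.7 CPM in the wild types (SD, n = 3 each).

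Whether counting used the strand is not given in the sources used here, so reads of overlapping genes may be shared. Hes5 overlaps Gm20421 on the opposite strand, which had 34, 65 and 36 counts in the mutants and 34, 44 and 28 in the wild types. Dll1 overlaps A930024N18Rik on the opposite strand, with 107, 88 and 98 counts in the mutants and 127, 91 and 83 in the wild types. The overlapping genes of Notch1, Notch2 and Notch3 had at most 36 counts in a library. Dll3, Jag1, Hes1, Hes6 and Hey1 overlap no other gene in the table. In the authors' deposited table the adjusted p of all 10 genes is 1, and the smallest p is 0.198, for Notch2.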

How the data were processed

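Per the submitters' processing notes, HISAT2 2.0.4, StringTie and edgeR were used with GRCm38.p4 and mm10. The sources used here name no counting program, annotation release or strand setting. Per the file headers, the authors deposited whole-number counts per gene and library, FPKM values, their mean FPKM per genotype, and a p-value and adjusted p-value. Counts were used as deposited, with totals of 18617408 to 21632607. FPKM set levels between genes.

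The count model was edgeR 4.0.16 (R 4.3.3), with filterByExpr, TMM factors, a robust quasi-likelihood fit of genotype over all genes, a 2-sided test, Benjamini-Hochberg adjustment and a threshold of 0.05. Standard errors were taken as |log2 fold change| divided by √F. The steps were tested on simulated data. Alternatives were the DESeq2 1.42.0 Wald test, limma 3.58.1 (voom, and a fit on log2 of FPKM plus 0.1), edgeR with DESeq2 size factors, a looser filter of 1 count and a stricter one on mean CPM of 1, dropping each library in turn, dropping sex-chromosome or mitochondrial genes, blocking on the replicate number, and adding a score of meningeal markers.

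Genes and lists were chosen with earlier results of these data known. Named were all 10 genes, the Groucho genes, pathway genes at an unadjusted p under 0.05 or else the smallest p of their list, and the genes most like Hes5 and Hes1; others were named after their values were seen. No 2 libraries were identical, and counts of replicates differed by more than sampling noise. A gene that this rule names is not reported here.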

Additional observations from a re-analysis of the deposited data

How the results depend on the processing

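The 10 Notch and Hes genes gave 160 log2 fold changes over 16 alternatives. None passed the adjusted threshold, 4 had an unadjusted p under 0.05, and 9 had the opposite sign. With the meninges score added Dll1 was at 0.055 and Hes6 at 0.11, and the cause was not tested. That score mainly sets wild-type replicate 1 apart, so its fit is not separate from the fit without that library. With 1 library left out, Dll1 ranged from -0.073 to 0.063, Dll3 from -0.061 to 0.28, Jag1 from -0.42 to 0.0042 and Hes6 from -0.16 to 0.15. The median of the 10 ranged from 0.01 to 0.14 with 1 library left out and from 0.09 to 0.11 otherwise. No other pathway gene passed the threshold under these alternatives. The number of genes passing was 18, against 58 by the DESeq2 Wald test, 9 with a replicate block and 8 to 19 with 1 library left out, the lowest without mutant replicate 3. Deviations of same-numbered libraries correlated at -0.06, 0.10 and -0.02. Mutant replicates 1 and 3 correlated best with another number, and mutant replicate 2 with its own. With 3 libraries per genotype these values cannot decide whether same-numbered libraries were paired. With the replicate block Hes5 was at 0.42 and Hey1 at -0.30, and Tle4 had an edgeR adjusted p = 0.207. The block moved the unadjusted edgeR p of Hes5 from 0.334 to 0.085 and of Notch2 from 0.198 to 0.080. That of Dll3, Hes1 and Hey1 also fell, while that of Notch1, Notch3, Dll1, Jag1 and Hes6 rose. The spread between 3 libraries sets the precision: Hes5, at 159 to 417 counts a library, has an interval that still holds a fold of 2.51.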

Other observations

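Heyl, a Hey gene of vessel walls named after its values were seen, had 8.37, 7.22 and 8.66 CPM in the mutants, against 0.509, 6.42 and 8.17 CPM in the wild types. The low library was wild-type replicate 1, with 10 counts against 138 to 179 in the mutants and 143 and 152 in the other wild types. It was the same library in which meningeal markers summed to 14.7 CPM. The log2 fold change was 0.68 (SE 0.80, edgeR adjusted p = 1.0). The endothelial Notch genes, also named after their values were seen, had no such low library. Notch4 had 8.89, 10.1 and 9.33 CPM in the mutants, against 9.22, 8.66 and 7.58 CPM in the wild types (log2 fold change 0.15, SE 0.18). Dll4, the ligand of endothelial tips, had 8.84, 10.4 and 9.18 CPM in the mutants, against 7.44, 9.60 and 9.14 CPM in the wild types (log2 fold change 0.12, SE 0.18).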
